A study of Mus musculus with 12 samples.

Results

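The 37 genes described here encode the enzymes of glycolysis, the carriers of its substrate and product, and proteins whose transcripts are known to rise when oxygen is low. They were chosen by symbol from a list of named genes and not by a measured value, but with earlier results of these data known. All 37 were found among the 55291 symbols of the count files, and all 37 were among the 18147 genes with enough counts to be tested. The data are 12 RNA-seq libraries made for very low RNA input, 3 for each of 4 groups: bone marrow controls, bone marrow with acute myeloid leukaemia (AML), lung controls and lung with AML. Per the labels, each library came from Vecad+ cells, that is cells positive for VE-cadherin and labelled as endothelial, of a VECadCre-tdTomato mouse, controls included. In this line Cre recombinase is driven by the VE-cadherin promoter and a red fluorescent reporter is carried; the labels do not say whether Cre was inducible, and they give no age or sex. Both AML groups came from mice that received AML cells of the genotype Trp53(R172H/delta), and the control mice received no transplant, so the leukaemia and the transplantation as such cannot be told apart. The labels do not say that the 3 libraries of a group came from separate mice, so p-values measure only the spread between these samples, which may be technical.

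Total counts per library were between 12.8 and 39.2 M. Levels are given as CPM, counts per M (mega) counts, after TMM scaling between libraries. Against the label, transcripts of endothelial cells were scarce in both marrow groups, and in AML lungs they were under the level of control lungs. Cdh5, the gene of VE-cadherin itself, was at 3.53 to 6.53 CPM in marrow controls, 0.388 to 0.954 in marrow AML, 75.3 to 348 in control lungs and 3.89 to 31.8 in AML lungs. Pecam1, an adhesion molecule of endothelium, was at 8.41 to 14.8, 0.712 to 7.84, 249.7 to 889 and 19.9 to 115 CPM in the same order, and Ptprc, the leukocyte phosphatase CD45, at 2.51 to 7.86, 0.129 to 5, 27 to 46.5 and 22.1 to 27. The summed level of 20 pan-endothelial genes was 274 to 429 CPM in marrow controls, 233 to 275 in marrow AML, 4132 to 13978 in control lungs and 391 to 1485 in AML lungs, with none of the 20 at 0 in a whole group. The summed level of 14 lung epithelium genes ran from 158696 to 200921 CPM in control lungs and from 222255 to 260294 in AML lungs. That of 10 monocyte and macrophage genes ran from 27492 to 32404 CPM in control lungs and from 27656 to 34064 in AML lungs. In the marrow, 13 marrow stromal and osteolineage genes summed to 15697 to 21430 CPM in controls and 12564 to 22282 in AML. The values below are those of whole libraries, in which fewer cells of a type and less RNA per cell cannot be told apart.

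Glycolysis splits glucose into pyruvate in the cytosol, and lactate dehydrogenase can turn the pyruvate into lactate, which leaves the cell through monocarboxylate transporters. When oxygen is scarce, the prolyl hydroxylases that mark hypoxia-inducible factor (HIF) for destruction lose activity, and HIF accumulates and binds short DNA elements in genes of glycolysis, mitophagy and other pathways. Many steps of glycolysis have several isoenzymes that differ between tissues, such as the muscle-type and the liver and red cell type of pyruvate kinase, and bone marrow is known as a tissue of low oxygen tension compared with the lung.

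The core of the HIF element reads ACGTG or GCGTG, and both spellings were searched on both strands of the 250 bases before each RefSeq start site (GRCm38.p6). Of the 37 genes, 34 matched the promoter table by symbol (Ero1l under its RefSeq symbol Ero1a); Slc2a3, Bnip3l and Ndrg1 did not. Of the 34, 30 (88.2%) had at least 1 match in at least 1 window, and the 4 without one were Gpi1, Tpi1, Eno2 and Pklr. Counted by window, 38 of 50 (76.0%) held a match, against 38.6% of all 32851 RefSeq windows of this length. ACGTG alone was in 46.0% of the genes' windows and 16.6% of all windows, and GCGTG alone in 54.0% and 28.2%. The median GC content was 62.8% in the genes' windows and 52.4% in all windows, and a letter match is a description, not a bound site. Whether matches went with the direction in marrow AML, given further on, was not tested. Of the 4 genes without a match, Gpi1, Tpi1 and Eno2 rose there and Pklr fell. Among the genes with a match in at least 1 window, Hk1, Pfkm, Pdk1 and Slc16a1 fell. Gapdh, Slc16a3, Kdm3a, Higd1a and Ero1l, also with a match, did not pass the test there, and the other genes with a match rose. The 4 windows below are shown as examples of many matches (Bnip3 and Ldha, both higher in marrow AML), of matches in a gene that was lower there (Slc16a1) and of no match (Pklr, lower in marrow AML and higher in lung AML). Capitals mark the matched letters on the strand printed, so that CACGT and CACGC are matches of the other strand, and CACGTG counts as a match of ACGTG on both strands. The windows are at chr7:138909507-138909756 (Bnip3, minus strand, 5 matches), chr7:46845554-46845803 (Ldha, plus strand, its first listed start, 5 matches), chr3:104638414-104638663 (Slc16a1, plus strand, 4 matches) and chr3:89135892-89136141 (Pklr, plus strand, its first listed start, 0 matches).
Bnip3: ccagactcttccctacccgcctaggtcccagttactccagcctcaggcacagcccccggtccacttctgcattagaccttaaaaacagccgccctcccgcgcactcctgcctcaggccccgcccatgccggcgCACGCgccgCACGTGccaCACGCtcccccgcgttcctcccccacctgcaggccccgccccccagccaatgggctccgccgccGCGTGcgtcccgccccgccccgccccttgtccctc
Ldha: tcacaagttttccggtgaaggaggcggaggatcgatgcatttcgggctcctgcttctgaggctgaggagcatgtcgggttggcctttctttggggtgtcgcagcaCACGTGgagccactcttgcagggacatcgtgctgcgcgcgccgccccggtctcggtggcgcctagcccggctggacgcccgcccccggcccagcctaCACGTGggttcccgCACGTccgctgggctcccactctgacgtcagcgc
Slc16a1: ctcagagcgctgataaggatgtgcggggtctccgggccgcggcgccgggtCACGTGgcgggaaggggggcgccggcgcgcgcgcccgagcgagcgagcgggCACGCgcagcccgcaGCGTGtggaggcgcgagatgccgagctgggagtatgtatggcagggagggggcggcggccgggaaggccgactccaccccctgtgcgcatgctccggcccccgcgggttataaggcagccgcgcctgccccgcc
Pklr: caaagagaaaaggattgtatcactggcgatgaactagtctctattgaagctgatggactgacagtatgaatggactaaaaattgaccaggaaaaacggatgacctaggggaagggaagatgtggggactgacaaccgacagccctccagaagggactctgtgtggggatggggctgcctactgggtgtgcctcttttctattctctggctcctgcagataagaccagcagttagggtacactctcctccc
The 5 matches of Bnip3 began between 117 and 35 bases before its start site. The window of Slc16a1 held its 4 matches farther out, between 200 and 134 bases before the start.

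Marrow AML libraries were first compared with marrow controls, which asks how expression of these genes differed between leukaemic and healthy marrow. Most were higher in AML: 25 of the 37 rose, 5 fell (Hk1, Pfkm, Pklr, Slc16a1 and Pdk1) and 7 did not pass (Slc2a3, Gapdh, Slc16a3, Bnip3l, Kdm3a, Higd1a and Ero1l), at an adjusted p under 0.05 in the edgeR quasi-likelihood test with Benjamini-Hochberg adjustment over all genes tested. The background was high, since 43.8% of all genes passed in this comparison, 20.4% as higher and 23.5% as lower. The median log2FC (log2 of the fold change, AML over control, given with its SE) of the 37 was 1.59, against -0.11 over all genes. For 29 of the 37, no AML library overlapped a control, as for 47.8% of all genes. Scaling by library totals alone moved the median of all genes to 0.16 and turned the split of their calls from 3694 higher and 4263 lower to 4645 and 2946. The 37 genes stood at 25 higher and 5 lower under TMM, DESeq2 size factors and library totals alone, with medians of 1.59, 1.64 and 1.91.

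Markers of other cells moved in the same comparison. All 15 erythroid markers fell, from a summed 19644 to 22311 CPM in controls to 3699, 1237 and 761 in AML libraries 1, 2 and 3, and all 15 proliferation markers fell, from 14564 to 15257 to 1328 to 3134. Of 12 pericyte and smooth muscle markers, 10 rose, from a summed 222 to 718 to 2654 to 9839 CPM. Among 10 pan-leukocyte markers, 7 rose and 2 fell (409.9 to 579.7 against 742 to 904 summed CPM; 7 and 0 with library totals alone). Of the 20 pan-endothelial genes, 1 rose and 8 fell (2 lower by limma-voom, 13 with the replicate block), and of 13 marrow stromal and osteolineage genes 5 rose and 4 fell. In the neutrophil, the monocyte and macrophage, and the lung epithelium lists 1 gene each passed. No marker of the erythroid, proliferation, pericyte and leukocyte lists was at 0 in either marrow group, whereas the neutrophil marker Ly6g and the macrophage marker Ms4a7 were at 0 in both. None of the 37 genes is in a marker list, and the part of these cells in the results below was not tested.

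**Figure D1:**
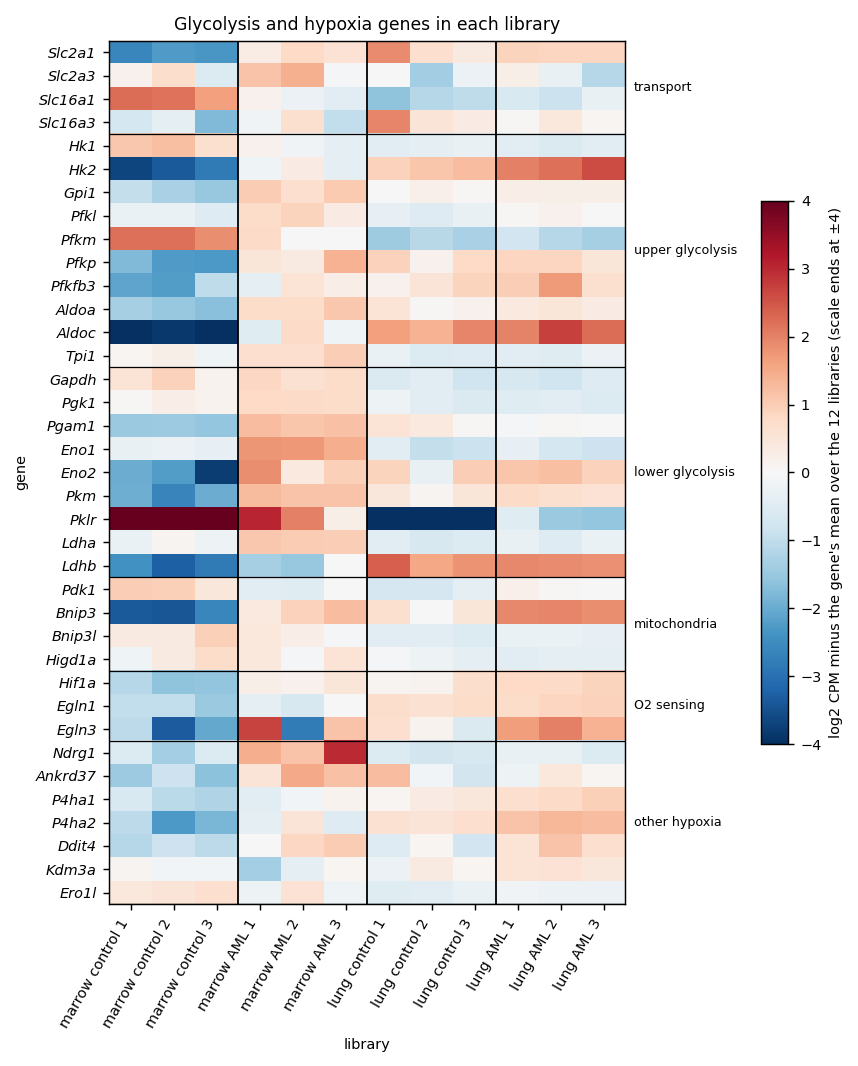
Level of each of the 37 genes (rows, by role) in each of the 12 libraries (columns, by group), as log2 CPM minus the gene's own mean over the libraries, with red above and blue below that mean. In 18 of 37 rows all 3 marrow controls lie below the 9 other libraries. In 5 rows (Slc16a1, Hk1, Pfkm, Pklr and Pdk1) they lie above all of them. The share of such rows among all genes was not computed, so these counts cannot be read as particular to the 37 genes. Of all genes, 47.8% did not overlap between marrow AML and marrow controls, and 74.8% between marrow and lung controls. These shares compare one group with another in either direction, so they are not a background for the 18 and 5 rows.

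Among the 4 carriers, 1 rose and 1 fell. Slc2a1, the glucose transporter GLUT1, was at 3.9, 4.92 and 4.73 CPM in the 3 marrow controls and at 30.1, 42.4 and 36.1 in marrow AML, 8.01-fold higher (log2FC 3.0 ± 0.36, adjusted p = 0.000117). Its lowest AML library stood well above its highest control. Slc16a1, the lactate and monocarboxylate transporter MCT1, went the other way, from 790.4, 759 and 535 CPM to 190.0, 144 and 124 (log2FC -2.19 ± 0.24, adjusted p = 7.41e-05). In marrow controls Slc16a1 was, per kb of exon, second among the 37 genes (157 CPM per kb, against 194 for Ldha). The glucose transporter Slc2a3 (log2FC 0.76 ± 0.50, adjusted p = 0.244) and the lactate exporter Slc16a3 (0.82 ± 0.54, adjusted p = 0.241) did not pass, and the groups of both overlapped.

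All 10 genes of upper glycolysis changed, 8 higher and 2 lower, and none of their groups overlapped. Hk2, the inducible hexokinase, which traps glucose as its phosphate, was at 0.79, 1 and 1.5 CPM in controls and 9.7, 13.9 and 8.47 in AML (log2FC 3.29 ± 0.32, adjusted p = 3.20e-05). The more widely expressed hexokinase Hk1 fell from 282 ± 53.8 to 133 ± 25.9 CPM (mean ± SD, n = 3; log2FC -1.08 ± 0.18, adjusted p = 0.000694). Hexokinase transcripts thus shifted in opposite directions, and per kb of exon Hk1 still exceeded Hk2 in marrow AML, at mean levels of 15.6 and 1.79 CPM per kb. Gpi1, glucose phosphate isomerase, was at 63.5, 49.7 and 42.7 CPM in controls and 247, 192 and 251 in AML (log2FC 2.15 ± 0.17, adjusted p = 1.88e-05).

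The 3 phosphofructokinase genes, which encode the subunits of the committed step, did not move together. Pfkp, the platelet-type subunit, was at 12.7, 9.04 and 8.8 CPM in controls and 60.6, 55.7 and 115 in AML (log2FC 2.92 ± 0.32, adjusted p = 6.69e-05). Pfkl, the liver type, rose by a smaller step (log2FC 1.01 ± 0.17, adjusted p = 0.000657). Pfkm, the muscle type, fell from 203 ± 25.2 to 58.5 ± 18.7 CPM (log2FC -1.80 ± 0.23, adjusted p = 0.000177). Pfkfb3, which makes the allosteric activator of phosphofructokinase, rose from 11.4 ± 5.83 to 42.2 ± 12.5 CPM (log2FC 1.89 ± 0.40, adjusted p = 0.00288).

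Both aldolase genes rose. Aldoa, the main aldolase (chromosome 7, 126795234 to 126809108, GRCm38), was at 191, 169.6 and 152 CPM in controls and 814, 801 and 1034 in AML (log2FC 2.37 ± 0.19, adjusted p = 1.68e-05). Aldoc, the brain-type aldolase, was near the bottom of the scale in controls, with 18 counts over the 3 libraries (0.279, 0.351 and 0.299 CPM), and reached 4.46, 10.8 and 5.58 CPM in AML (log2FC 4.46 ± 0.44, adjusted p = 3.42e-05). That was the largest fitted rise of the 37 genes in the marrow, at mean levels that per kb of exon stayed far under those of Aldoa (2.13 against 238 CPM per kb in AML). Tpi1, triose phosphate isomerase, rose least of the upper enzymes (log2FC 0.73 ± 0.16, adjusted p = 0.00384).

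In lower glycolysis, 7 of 9 genes rose, 1 fell and Gapdh did not pass. Pkm, the muscle-type pyruvate kinase of the last step (chromosome 9, 59656368 to 59679375, GRCm38), was at 78.5, 49.2 and 76.8 CPM in controls and 728, 679.9 and 679 in AML, 10.2-fold higher (log2FC 3.35 ± 0.21, adjusted p = 8.11e-06, the smallest of the 37). Pklr, the liver and red cell pyruvate kinase (chromosome 3, 89136142 to 89146784, GRCm38), fell from 81.1, 87.7 and 69.2 CPM to 30.0, 14.4 and 4.15 (log2FC -2.30 ± 0.63, adjusted p = 0.0126), and the fitted value was -3.09 without marrow AML 1. The AML libraries spread widely for Pklr, in the same order as their summed erythroid markers (3699, 1237 and 761 CPM), whose part was not tested. Of the other genes that fell, Slc16a1 (190.0, 144 and 124 CPM), Hk1 (161, 129 and 109) and Pfkm (80.1, 48.2 and 47.3) had this order too. Pdk1 (47.3, 46.5 and 64.8 CPM) did not. The order was not particular to genes that fell. Among those that rose, Pkm, Ldha (1477, 1402 and 1367 CPM), Eno1 (726, 710.1 and 579) and Pgk1 had it. The others that rose did not, and the share of all genes with this order was not computed. Per kb of exon, mean Pkm and Pklr levels were 13.6 and 24.5 CPM per kb in controls, and 139 and 5 in AML.

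Pgam1, phosphoglycerate mutase, was at 6.28, 6.53 and 6.04 CPM in controls and 41.9, 38.5 and 40.4 in AML (log2FC 2.68 ± 0.20, adjusted p = 1.50e-05), with little spread in either group. Eno1, the ubiquitous enolase, was at 171, 181 and 169 CPM and 726, 710.1 and 579 (log2FC 1.95 ± 0.19, adjusted p = 3.38e-05). Eno2, the enolase of neurons, rose from 0.573 ± 0.347 to 8.29 ± 4.33 CPM (log2FC 3.82 ± 0.65, adjusted p = 0.000814), from 35 counts over the 3 controls. Pgk1, phosphoglycerate kinase, rose by 0.61 ± 0.16 on the log2 scale (adjusted p = 0.00795). Gapdh, the dehydrogenase that starts the energy-yielding steps and often a reference gene, was at 297 ± 77.3 and 334 ± 25.8 CPM (log2FC 0.17 ± 0.19, adjusted p = 0.498).

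Ldha, the lactate dehydrogenase subunit that favours lactate formation (chromosome 7, 46841475 to 46855627, GRCm38), was at 580.4, 742 and 608 CPM in controls and 1477, 1402 and 1367 in AML (log2FC 1.14 ± 0.15, adjusted p = 0.000214). It was the most abundant of the 37 per kb of exon in both marrow groups (194 and 428 CPM per kb). Ldhb, the subunit of oxidative tissues, rose from 11.1 ± 3.12 to 44.8 ± 27.5 CPM (log2FC 2.02 ± 0.39, adjusted p = 0.00177; 1.38 without marrow AML 3, adjusted p = 0.00253). The 19 enzyme genes of upper and lower glycolysis summed to 2368 ± 267 CPM in marrow controls and 5295 ± 153 in marrow AML (SD, n = 3). Reads of several of these genes (Gapdh, Pgk1, Pgam1, Ldha, Eno1 and Aldoa) could be shared with near-identical pseudogenes, so their levels are uncertain to that degree.

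**Figure D2:**
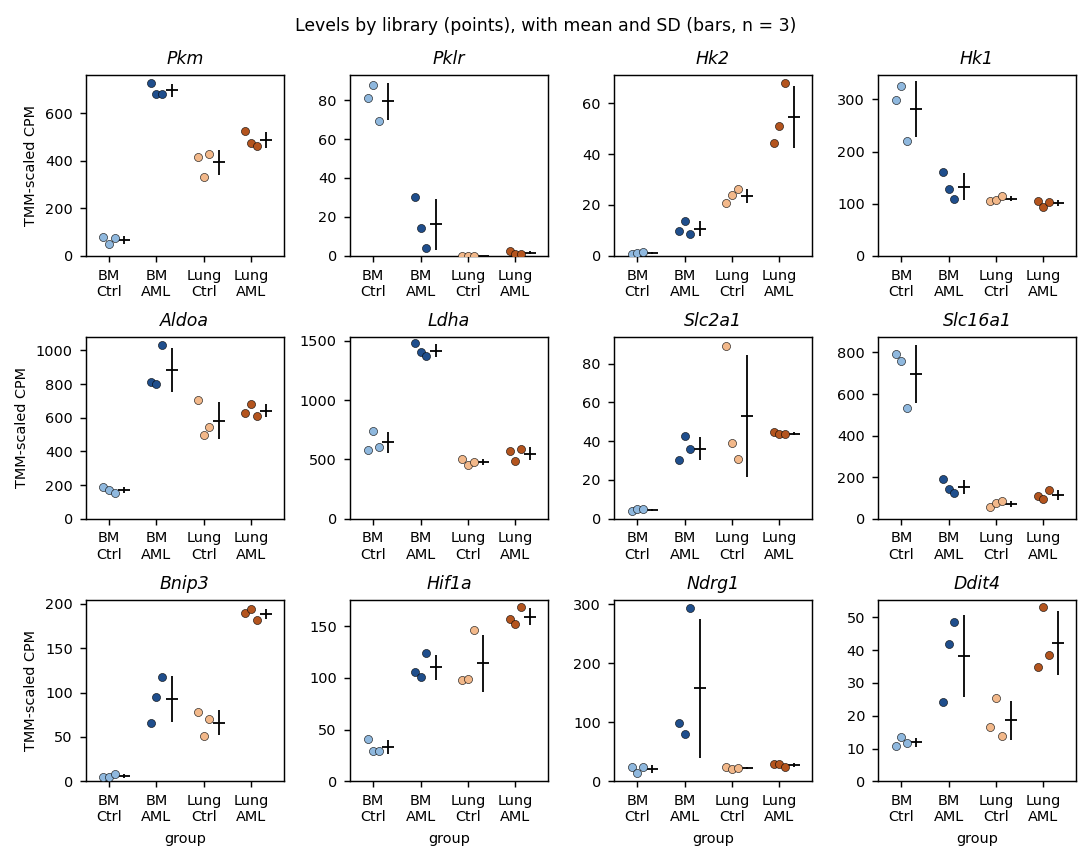
TMM-scaled CPM of 12 of the genes in each library (points) with the group mean and SD (bars, n = 3), on linear axes from 0. Pkm, Hk2, Aldoa, Ldha, Slc2a1, Bnip3, Hif1a, Ndrg1 and Ddit4 are higher in all 3 marrow AML libraries than in any marrow control, and Pklr, Hk1 and Slc16a1 are lower.

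Of 4 genes at the mitochondrion, 1 rose and 1 fell. Bnip3, a receptor that targets mitochondria for autophagy (chromosome 7, 138890836 to 138909519, GRCm38), was at 4.83, 4.62 and 8.14 CPM in controls and 65.3, 94.4 and 117 in AML, 15.8-fold higher (log2FC 3.98 ± 0.30, adjusted p = 1.50e-05). Its relative Bnip3l, also a mitophagy receptor and known for clearing mitochondria from maturing red cells, did not pass (log2FC -0.37 ± 0.19, adjusted p = 0.128). Pdk1, a kinase that switches off pyruvate dehydrogenase and a textbook HIF target, was at 128, 127 and 89.1 CPM in controls and lower in AML, at 47.3, 46.5 and 64.8 (log2FC -1.12 ± 0.19, adjusted p = 0.000914). Higd1a, a regulator of the respiratory chain, did not pass (log2FC -0.04 ± 0.23, adjusted p = 0.924).

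All 3 oxygen-sensing genes were called higher. Hif1a, the oxygen-regulated HIF subunit (chromosome 12, 73901375 to 73947530, GRCm38), was at 41, 29.6 and 29.8 CPM in controls and 106, 101 and 124 in AML (log2FC 1.72 ± 0.20, adjusted p = 8.50e-05); HIF-1 alpha is controlled mainly as a protein, which was not measured. Egln1, the prolyl hydroxylase PHD2, was at 29.9, 29.8 and 21.1 CPM and 45.7, 37.9 and 58.9 (log2FC 0.82 ± 0.19, adjusted p = 0.00516). Egln3, the prolyl hydroxylase PHD3, is the weakest of these calls. It was at 0.325, 0 and 0.12 CPM in controls, where 0 counts in library 2 allow up to 0.151 CPM by counting error alone, and at 5.37, 0.0382 and 1.78 in AML, so that the groups overlapped. The call of Egln3 (log2FC 3.93 ± 1.36, adjusted p = 0.0361) was lost without marrow control 2 (adjusted p = 0.1), marrow control 3 (0.102), marrow AML 1 (0.125), lung control 2 (0.0506), lung AML 1 (0.0547) or lung AML 3 (0.0545), and with limma-voom (0.167), and its log2FC was 5.27 without marrow control 1.

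Of 7 other hypoxia-induced genes, 5 rose. Ndrg1, a stress-response protein, was at 25, 14.2 and 24.6 CPM in controls and 99.7, 80.2 and 293 in AML (log2FC 2.89 ± 0.44, adjusted p = 0.000433), with AML library 3 far above the others (log2FC 2.08 without it, adjusted p = 0.000157). Ankrd37, an ankyrin-repeat protein, was at 2.23, 3.41 and 1.92 CPM and 8.99, 18 and 14.2 (log2FC 2.44 ± 0.54, adjusted p = 0.00385). Ddit4, the mTORC1 inhibitor REDD1, was at 10.7, 13.5 and 11.6 CPM and 24.3, 42 and 48.5 (log2FC 1.69 ± 0.31, adjusted p = 0.00135). These groups did not overlap, and neither did those of the prolyl hydroxylases of collagen. P4ha2 was at 27.4, 11.6 and 15.8 CPM in controls and 44.4, 81 and 39.6 in AML (log2FC 1.59 ± 0.32, adjusted p = 0.00239). P4ha1 rose less (log2FC 0.84 ± 0.20, adjusted p = 0.00608).

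Kdm3a and Ero1l did not pass. Ero1l, an oxidase of the endoplasmic reticulum, was at 68.1, 73.9 and 80.9 CPM in controls and 44.2, 76 and 45.3 in AML (log2FC -0.43 ± 0.20, adjusted p = 0.11), and it was called lower without marrow AML 2 (log2FC -0.73, adjusted p = 0.00427). Kdm3a, a histone demethylase, had a log2FC of -0.41 ± 0.29 (adjusted p = 0.282) and was called lower without marrow AML 3 (-0.75, adjusted p = 0.0434). Neither pointed up in the marrow, unlike most of the hypoxia-induced genes.

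**Figure D3:**
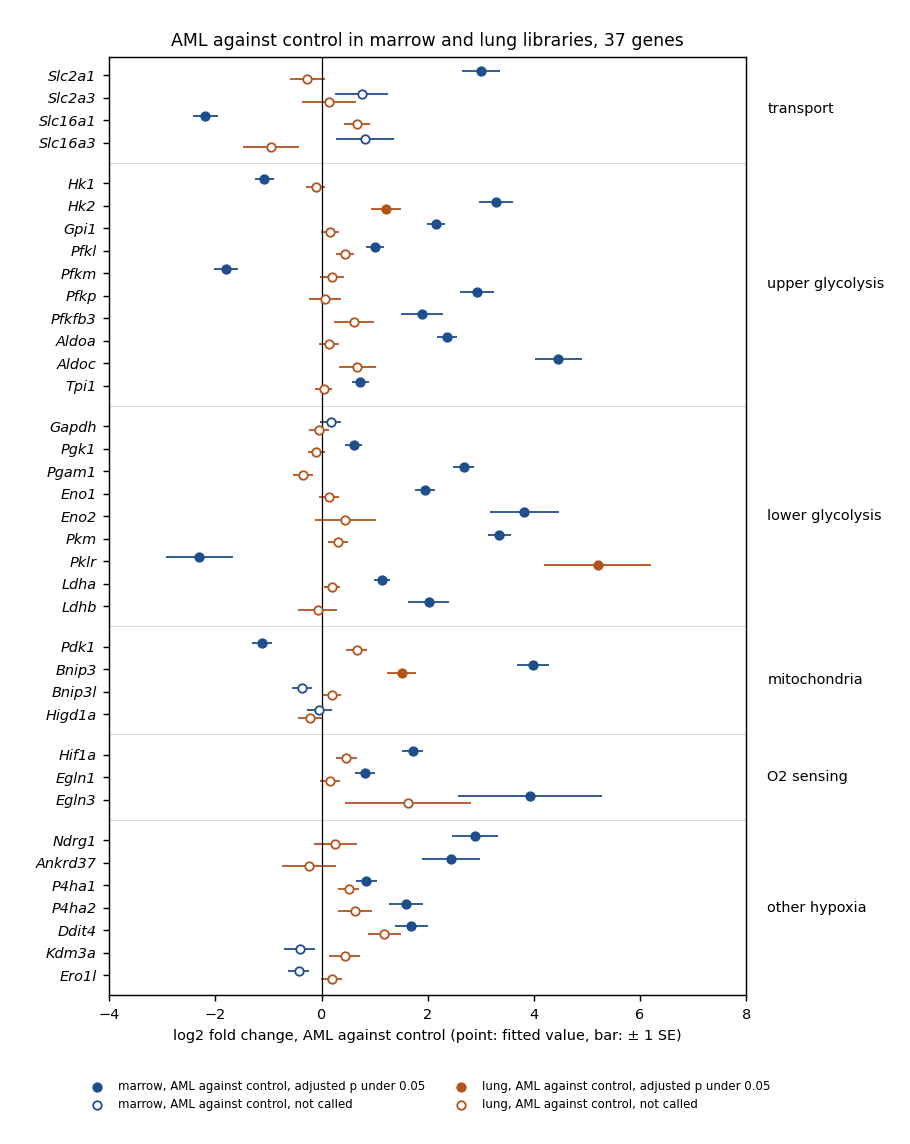
Fitted log2 fold change of AML against control for each of the 37 genes in marrow (blue) and lung (orange), with bars of 1 SE. Filled points passed an adjusted p of 0.05; 30 are filled in the marrow and 3 (Hk2, Pklr and Bnip3) in the lung.

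The same question was asked of the lung, where far fewer genes of any kind passed. Of the 37, 3 rose (Hk2, Pklr and Bnip3) and 0 fell, against a background of 2.33% of all genes (1.17% higher, 1.16% lower; with library totals alone 182 higher and 273 lower). The count of 3 was 0 without lung control 2, lung AML 1 or lung AML 3, 1 without lung control 1 or lung control 3, 5 by DESeq2's Wald test and 6 with only the 6 lung libraries. The count of 0 lower by edgeR was also 0 by DESeq2, by limma-voom and by edgeR at an unadjusted p under 0.05. The median log2FC of the 37 was 0.20, against 0.00 over all genes. For 20 of the 37 no AML library overlapped a control, as for 35.0% of all genes. Of the 20 pan-endothelial genes, 12 fell in the same comparison and none rose, and of 15 erythroid markers 4 rose, although the summed erythroid level was 353 to 405 CPM in controls and 201 to 359 in AML. The count of 12 was 7 without lung control 3, 2 without lung control 2, 1 without lung AML 1 and 0 without lung AML 3, and that of 4 was 2 without any 1 of these libraries or lung control 1. The part of these differences in the values below was not tested. Elane, a neutrophil gene, was at 0 in all lung controls.

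Bnip3 had the smallest adjusted p of the 3. It was at 78, 50.8 and 69.9 CPM in lung controls and at 189, 194 and 182 in lung AML, 2.85-fold higher (log2FC 1.51 ± 0.27, adjusted p = 0.0173). The AML libraries lay close together and clear of the controls. The call was nonetheless lost without lung control 2 (adjusted p = 0.08), lung AML 1 (0.0695) or lung AML 3 (0.0688), while the log2FC stayed at 1.35, 1.51 and 1.53. Hk2 was at 20.9, 23.8 and 26.3 CPM in controls and 44.5, 51.2 and 67.9 in AML (log2FC 1.21 ± 0.28, adjusted p = 0.0492). This value sat at the threshold: it was lost with DESeq2 size factors (0.0557), library totals alone (0.0722), no filter (0.0713) and the replicate block (0.0611), and without marrow control 1 or 2 or any 1 of the 6 lung libraries (0.0554 to 0.229).

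Pklr was barely present in the lung. It had 0, 0.115 and 0 CPM in controls, 3 counts in all, and 2.48, 1.2 and 1.16 CPM in AML, 146 counts in all, a ratio of 44.3 with a 95% counting interval of 14.9 to 217. Its fitted log2FC was 5.20 ± 1.01 (adjusted p = 0.0258; 8.30 without lung control 2), and the call was lost without lung control 1 (0.0878), lung control 2 (0.0696), lung control 3 (0.0705), lung AML 1 (0.103) or lung AML 3 (0.0718). Lung AML levels of Pklr were still under the lowest marrow AML library. Hcn3 overlaps exons of Pklr on the other strand, and reads of the 2 cannot be told apart. The same limit holds for other members with overlapping exons. Protein-coding genes overlap Ankrd37 (Lrp2bp and Ufsp2), Pfkm (Senp1), Pfkp (Pitrm1), Aldoa (Fam57b), Tpi1 (Spsb2), Gapdh (Iffo1) and Hif1a (Gm49321). Genes of other types overlap Slc2a1, Hk1, Gpi1, Pkm, Bnip3, Ndrg1 and Higd1a.

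The remaining 34 genes did not pass in the lung. Ddit4 came nearest, at 16.6, 25.4 and 13.9 CPM in controls and 34.8, 53.1 and 38.6 in AML (log2FC 1.18 ± 0.31, adjusted p = 0.0746), and it passed by DESeq2 (0.00498), by limma-voom (0.0475), in a fit of only the 6 lung libraries (0.0427) and without marrow AML 1 (0.0417). Pdk1 was at 40.5, 41 and 50.6 CPM in controls and 75.6, 67.2 and 65.8 in AML (log2FC 0.66 ± 0.19, adjusted p = 0.105) and passed by DESeq2 (0.011) and with only the lung libraries (0.0427). P4ha2, at 87.5, 81.8 and 91.4 against 126, 144 and 136 CPM (adjusted p = 0.357), passed with only the lung libraries (0.0307). In these 3 genes the groups did not overlap. The abundant glycolysis enzymes had small fitted changes in the lung. Aldoa was at 705, 497 and 547 against 631, 683 and 611 CPM (log2FC 0.14 ± 0.18), Ldha at 506, 449 and 477 against 572, 484 and 585 (0.20 ± 0.15) and Pkm at 415, 333 and 430.0 against 524, 475 and 461 (0.31 ± 0.19). For Pgam1 the lung values were 26.2, 23.2 and 18.5 against 17.1, 18.3 and 17.8 CPM (log2FC -0.35 ± 0.19). The summed level of the 19 enzyme genes was 2749 ± 310.0 CPM in lung controls and 3089 ± 67.2 in lung AML.

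Further lung values were as follows for genes given by library in the marrow. Slc2a1 was at 89.3, 38.8 and 30.9 CPM in controls and 44.7, 43.6 and 43.5 in AML, with control library 1 far above the others. Slc16a1 was at 56, 75.9 and 83.5 CPM against 111, 92.7 and 139, without overlap (log2FC 0.67 ± 0.24, adjusted p = 0.174). Hif1a was at 97.7, 99 and 146 CPM against 157, 152 and 168 (log2FC 0.47 ± 0.19, adjusted p = 0.242), again without overlap. Carriers and sensors that separated in this way did not pass the test over all genes. Gpi1 was at 124, 141 and 125 CPM against 148, 143 and 143, and Pfkp at 83.1, 49.2 and 75.7 against 78.6, 77.9 and 60.3. Aldoc was at 19.7, 16.4 and 24.4 CPM against 24.9, 41.5 and 29.6, and Eno1 at 156, 108 and 118 against 169.5, 131 and 119. None of these 4 passed. Egln1 was at 96.7, 90.6 and 98.5 CPM against 98.4, 108 and 112, and Egln3 at 1.26, 0.844 and 0.481 against 2.59, 3.29 and 2.12 (adjusted p = 0.598). Ndrg1 was at 24.7, 21.9 and 23.1 CPM against 29.4, 29.3 and 24.7, a level close to that of marrow controls. Ankrd37 was at 14.6, 5.76 and 3.7 CPM against 5.44, 8.38 and 6.53, and Ero1l at 36.5, 38.3 and 42.4 against 46.6, 43.6 and 43.7. The other genes not given by library in the lung (Slc2a3, Slc16a3, Hk1, Pfkl, Pfkm, Pfkfb3, Tpi1, Gapdh, Pgk1, Eno2, Ldhb, Bnip3l, Higd1a, P4ha1 and Kdm3a) had log2FC values from -0.95 (Slc16a3) to 0.61 (Pfkfb3).

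Whether the AML effect differed between the tissues was tested as an interaction, the log2 fold change in marrow minus that in lung. Of the 37, 18 had a higher effect in the marrow, 5 a lower one (Hk1, Pfkm, Pklr, Slc16a1 and Pdk1) and 14 did not pass; the background was 30.7% of all genes, 14.6% higher and 16.1% lower (with library totals alone, 3489 higher and 1757 lower). The median difference was 0.95, against -0.09 over all genes. Pkm (difference 3.04 ± 0.27, adjusted p = 0.000106), Pgam1 (3.03 ± 0.28, adjusted p = 0.000111) and Aldoa (2.23 ± 0.25, adjusted p = 0.000217) had the smallest p-values. Bnip3, which passed in both tissues, still differed between them (2.47 ± 0.38, adjusted p = 0.000896), as did Hk2 (2.08 ± 0.41, adjusted p = 0.00333). Pklr, lower in marrow AML and higher in lung AML, had a difference of -7.50 ± 1.19 (adjusted p = 0.00115; -10.59 without lung control 2 and -8.30 without marrow AML 1). For Ddit4 the effects of 1.69 and 1.18 did not differ beyond their error (0.51 ± 0.43, adjusted p = 0.407), and for P4ha1 those of 0.84 and 0.51 did not either (0.33 ± 0.28, adjusted p = 0.419).

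The controls of the 2 tissues were already apart. Against lung controls, marrow controls were higher for 11 of the 37 genes and lower for 18, and the test did not pass for 8, in a comparison where 64.2% of all genes passed (29.4% higher, 34.7% lower). The median log2 difference was -1.24, against -0.20 over all genes, and 32 of 37 had no overlap, as had 74.8% of all genes. These contrasts share their marrow controls with the marrow AML comparison, so their signs are not independent of it. Lowest in marrow relative to lung were Aldoc (log2 difference -6.00 ± 0.46, adjusted p = 1.38e-06), Ldhb (-4.76 ± 0.44, adjusted p = 4.61e-06) and Hk2 (-4.43 ± 0.33, adjusted p = 1.21e-06). Highest were Pklr (4647 against 3 counts, ratio 2028, 95% counting interval 693 to 9837), Pfkm (3.37 ± 0.25, adjusted p = 1.23e-06) and Slc16a1 (3.28 ± 0.26, adjusted p = 1.66e-06). Erythroid markers, at a summed 19644 to 22311 CPM in marrow and 353 to 405 in lung controls, were all 15 higher in marrow, and lung epithelium markers all 14 lower; their part was not tested. Per kb of exon, the leading genes were Ldha (194), Slc16a1 (157) and Tpi1 (76.5 CPM per kb) in marrow controls, and Ldhb (191), Aldoa (157) and Ldha (144) in lung controls. Marrow AML was led by Ldha (428), Aldoa (238) and Pkm (139), and lung AML, in the order of its controls, by Ldhb (182), Aldoa (173) and Ldha (165).

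Ratios between related genes within a library do not depend on the scaling between libraries. With 0.5 counts added to each gene, 10 pairs were formed in each tissue, 20 comparisons in all, each tested by a two-sided exact permutation test of 3 against 3 libraries, which cannot go below p = 0.10, so that no pair could pass an adjusted 0.05. In the marrow 9 of 10 pairs did not overlap between AML and control, and in the lung 4 of 10 (each of these with exact p = 0.1, adjusted 0.154), where 47.8% of all single genes in the marrow and 35.0% in the lung did not overlap either. The lung count is thus near that share, and the share among other gene pairs was not computed. Pkm to Pklr, Hk1 to Hk2, Pfkp to Pfkm and Pfkl to Pfkm each pair a gene that rose with one that fell in marrow. The marrow groups of neither gene overlapped, so these marrow ratios had to separate, and Pfkm is in both phosphofructokinase pairs. The log2 ratio of Pkm to Pklr was -0.05, -0.83 and 0.15 in marrow controls and 4.60, 5.56 and 7.35 in marrow AML. In the lung it went the other way, from 14.22, 11.27 and 14.51 to 7.71, 8.61 and 8.60, where the control values rest on the 3 counts of Pklr. Hk1 to Hk2 was lower with AML in both tissues, with differences of -4.35 in the marrow and -1.30 in the lung. Bnip3 to Bnip3l was higher by 4.33 in the marrow and 1.34 in the lung, and only the lung AML libraries, at 0.41, 0.48 and 0.45, held more counts of Bnip3 than of Bnip3l. Pfkp to Pfkm went from -4.33 ± 0.25 to 0.36 ± 0.85 (SD, n = 3) in the marrow, so that the raw counts of these subunit genes came close. Per kb of exon, mean Pfkm was still above Pfkp in marrow AML, at 17.5 and 5.76 CPM per kb. Slc16a3 to Slc16a1 differed by 2.98 in the marrow and by -1.42 in the lung. Ldha to Ldhb, the ratio often read as a tendency toward lactate, overlapped in both tissues (differences of -0.74 and 0.22, exact p = 0.4 and 0.5).

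**Figure D4:**
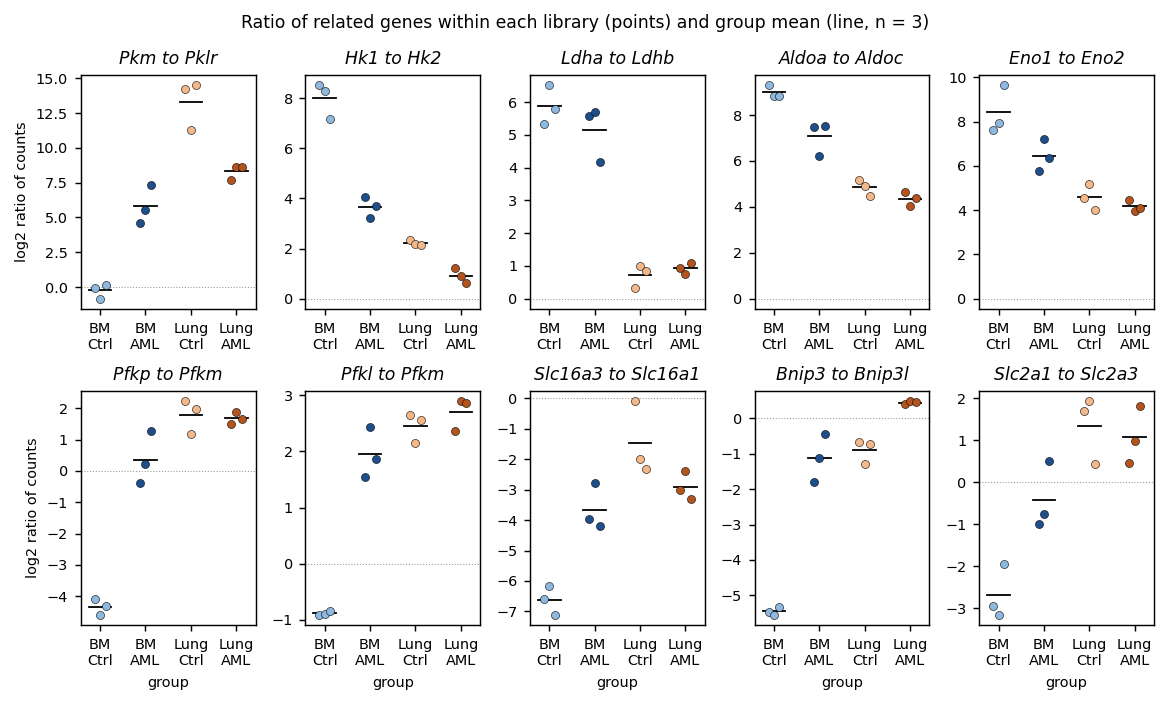
Log2 ratio of the counts of 10 pairs of related genes in each library (points) with the group mean (line, n = 3), with a dotted line where both genes have equal counts. Pkm to Pklr is higher in marrow AML than in marrow controls and lower in lung AML than in lung controls, and Ldha to Ldhb overlaps in both tissues.

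Genes of the pathways around glycolysis were read from lists that do not contain the 37. Of their 118 tested genes, 36 rose and 33 fell in marrow AML, to be read against the 20.4% of all genes called higher and 23.5% called lower, so that counts near these shares say nothing particular of a list. Of 16 tricarboxylic acid cycle genes, which oxidise acetyl groups in mitochondria, 0 rose and 9 fell in marrow AML (median log2FC -0.45). Examples were Dlst, a subunit of the oxoglutarate dehydrogenase complex (-1.66 ± 0.20, adjusted p = 0.000102), Cs, citrate synthase (-1.05 ± 0.13, adjusted p = 0.000143), and Mdh2, malate dehydrogenase (-0.75 ± 0.17, adjusted p = 0.00387). The count of 9 depended on the scaling, with 6 lower by DESeq2 size factors, 1 higher and 4 lower with library totals alone (where Mdh2 missed the threshold, adjusted p = 0.051), and it was 5 without lung AML 2. The count of 0 was the same by DESeq2's Wald test, by limma-voom and by edgeR at an unadjusted p under 0.05. Of 13 genes of pyruvate dehydrogenase and its regulators, 3 rose and 4 fell. Pdhb, a subunit of the complex, fell (-1.25 ± 0.14, adjusted p = 6.15e-05), as did the kinase Pdk3 (-1.28 ± 0.19, adjusted p = 0.000359). The kinases Pdk2 (1.36 ± 0.20, adjusted p = 0.000377) and Pdk4 (2.63 ± 0.31, adjusted p = 0.000101) rose, so that the 4 kinases of this complex, Pdk1 included, split evenly by direction.

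Glycogen genes had the highest share of rises among these lists. Of 14 tested, 10 rose and 0 fell in marrow AML (median log2FC 1.46), with 0 lower also by DESeq2, by limma-voom and by edgeR at an unadjusted p under 0.05. Among them were Stbd1, which tethers glycogen for autophagy (4.50 ± 0.38, adjusted p = 1.92e-05), Pgm1, phosphoglucomutase (2.26 ± 0.26, adjusted p = 9.28e-05), Pygb, brain-type glycogen phosphorylase (1.61 ± 0.19, adjusted p = 9.74e-05), and Gys1, muscle glycogen synthase (2.56 ± 0.36, adjusted p = 0.000269). Genes of synthesis and of breakdown both rose. In the pentose phosphate pathway 2 of 8 rose and 4 fell: the cytosolic enzymes Tkt (-1.45 ± 0.21, adjusted p = 0.000353), Rpe (-1.13 ± 0.17, adjusted p = 0.000372) and Taldo1 (-1.46 ± 0.23, adjusted p = 0.00048) were lower, and H6pd, the enzyme of the endoplasmic reticulum, was higher (2.45 ± 0.25, adjusted p = 4.07e-05). Of 6 gluconeogenesis genes tested, 1 rose (G6pc3, 1.10 ± 0.20, adjusted p = 0.00131) and 3 fell (Pcx, Pck2 and Fbp1), Fbp1 at under 1 CPM in both marrow groups.

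Other genes of hypoxia followed the 37 in part. Of 30 further hypoxia-induced genes, 14 rose and 4 fell in marrow AML (median log2FC 1.21). Gys1 is in this list and in the glycogen list, so its rise counts in both. Adm, the vasodilator adrenomedullin, rose (4.89 ± 0.54, adjusted p = 7.12e-05), as did Nfil3, a transcription factor (2.58 ± 0.28, adjusted p = 5.94e-05). Narf (-1.81 ± 0.19, adjusted p = 5.80e-05) and Tfrc, the transferrin receptor (-3.56 ± 0.35, adjusted p = 3.87e-05), fell, and Tfrc is also one of the 15 erythroid markers that fell. Of 16 HIF pathway regulators, 4 rose and 4 fell (5 and 2 with library totals alone, 4 and 2 without lung AML 2): Epas1, the HIF-2 alpha subunit (2.41 ± 0.42, adjusted p = 0.000978), and Cited2, a competitor of HIF for its coactivator (2.04 ± 0.33, adjusted p = 0.000657), were higher. Cul2, the scaffold of the ubiquitin ligase that destroys HIF (-1.19 ± 0.18, adjusted p = 0.000412), and Arnt2 (-5.40 ± 1.18, adjusted p = 0.00353, at 0.0431 CPM in AML; -8.30 without marrow AML 1) were lower. Of 16 other isoforms of glycolytic enzymes and carriers, 3 rose and 5 fell (4 and 2 with library totals alone, 2 and 2 without marrow control 2, 3 and 2 without lung AML 2), among them Slc16a7, the carrier MCT2 (2.24 ± 0.35, adjusted p = 0.000479), Slc2a2, the transporter GLUT2 (5.92 ± 1.43, adjusted p = 0.00641, from 0.0598 to 3.62 CPM; 5.16 without marrow AML 3 and 9.47 without marrow control 3), Pfkfb2 (-2.61 ± 0.56, adjusted p = 0.00326; -3.70 without marrow AML 3) and Bpgm, the bisphosphoglycerate mutase of red cells (-1.26 ± 0.21, adjusted p = 0.000686).

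In the lung, 5 of the 118 tested genes of these lists passed (4.24%, against 2.33% of all genes), and they are named for that reason, Angptl4 and Selenbp1 after their values were seen. Pdk4, known to be induced by fasting, went from 24.2 ± 5.45 to 162 ± 25.1 CPM in the lung (SD, n = 3; 2.75 ± 0.31, adjusted p = 0.0025), beside the 2.63 ± 0.31 of the marrow, and the difference between the tissues was -0.12 ± 0.41 (adjusted p = 0.871). Angptl4, a secreted inhibitor of lipoprotein lipase, also rose in both (2.92 ± 0.36, adjusted p = 0.00366 in lung, 2.81 ± 0.36, adjusted p = 0.000167 in marrow), as did H6pd (1.28 ± 0.23, adjusted p = 0.0207 in lung; lost without lung control 1 or 2 or lung AML 1 or 3, 0.0501 to 0.0945). Bpgm fell in both (-0.96 ± 0.21, adjusted p = 0.0376 in lung; lost without any 1 marrow control or lung library, 0.0535 to 0.158, with no filter, 0.0557, and with the replicate block, 0.0561). Selenbp1, a selenium-binding protein, rose in the lung (1.37 ± 0.21, adjusted p = 0.0112; 0.0505 without lung control 2) and fell in the marrow (-1.27 ± 0.21, adjusted p = 0.000717).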

How the data were processed

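Per the labels' protocols, RNA was purified on micro columns and libraries were made with SMART-seq v4 and ThruPLEX reagents. Per the submitters' processing notes, bcl2fastq, STAR and the mm10 build were used. Their versions, the annotation and the counter: not given in the sources used here. Raw counts per gene symbol, 1 file per library and without normalisation, were deposited by the authors, and counts were made without regard to strand, per the file names, so where 2 genes overlap their reads are not separable. No count column lay outside the 12 samples.

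Counts were fitted in R 4.3.3 with edgeR 4.0.16 (quasi-likelihood F test, robust, 4 groups in 1 model of 12 libraries, 8 residual degrees of freedom), after the filter by group (minimum count 10, minimum total 15) and TMM scaling (factors 0.865 to 1.25). Adjusted p is Benjamini-Hochberg over all 18147 genes tested, with calls under 0.05, and SE is the log2FC over the root of F. Fitted values of genes with a group at or near 0 depend on the prior count. Alternatives were DESeq2 1.42.0 (size factors, Wald test), limma 3.58.1 (voom), library totals alone, leaving the expression filter off or requiring 5 CPM in at least 3 libraries, a replicate block, a fit to the 6 libraries of a comparison, and 12 fits that each omit 1 library. Simulated counts with known changes in a small set of genes, evenly up and down and in marrow AML alone, were used to check the fit. They cannot check the scaling where a large share of genes differs, as in the marrow. Positions and exon lengths came from the GENCODE annotation of GRCm38 and promoters from RefSeq. The summed levels, per kb levels and ratios are descriptions, and counting intervals and floors (3 counts) cover counting error only.

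A gene of the 37 was given by library where it was called in an AML comparison or in their difference and had 1 of the 4 smallest p-values of its role there, and Hif1a, Pklr, Pkm, Bnip3 and Ero1l in any case. Of each pathway list, up to 4 tested genes with the smallest p in marrow were named, except a gene that is not reported here, and Cdh5, Pecam1 and Ptprc as checks. The members, lists and rules were chosen with earlier results of these data known.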

Additional observations from a re-analysis of the deposited data

Results flagged for a closer look

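For 23 of the 37 genes the AML effect differed between marrow and lung by the interaction test of edgeR (adjusted p under 0.05), which is what brought them here. Of all genes, 30.7% passed the same test, 14.6% as higher and 16.1% as lower. The values are the log2FC in marrow minus that in lung, each from 3 libraries per group. Among carriers the difference was 3.27 for Slc2a1 and -2.86 for Slc16a1. In upper glycolysis it was 2.08 for Hk2, 1.99 for Gpi1, 2.86 for Pfkp, 2.23 for Aldoa, 3.80 for Aldoc and 0.68 for Tpi1, and with the opposite sign -0.97 for Hk1 and -2.0 for Pfkm. In lower glycolysis it was 0.71 for Pgk1, 3.03 for Pgam1, 1.82 for Eno1, 3.37 for Eno2, 3.04 for Pkm, 0.94 for Ldha, 2.09 for Ldhb and -7.50 for Pklr. At the mitochondrion it was 2.47 for Bnip3 and -1.78 for Pdk1, and among the remaining genes 1.25 for Hif1a, 2.63 for Ndrg1 and 2.68 for Ankrd37. The call of Tpi1 (adjusted p = 0.0405) was lost without marrow control 1 or 3, marrow AML 3, lung control 1 or 3, or lung AML 1. That of Pgk1 (adjusted p = 0.0297) was lost without marrow control 1 or 3, lung control 1, or lung AML 1 or 3. That of Ankrd37 (adjusted p = 0.0179) was lost without lung AML 1. Without marrow AML 3 the difference was 1.45 for Ldhb and 1.82 for Ndrg1, without lung control 1 it was 1.95 for Ankrd37, and for Pklr it was -10.59 without lung control 2. Tpi1 and Pgk1 were also lost without the expression filter and with the replicate block, and Hk1 with library totals alone.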

How the results depend on the processing

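Over 738 alternative values for the 37 genes in the marrow comparison, 729 kept their direction and side of the threshold, 7 lost the call and 2 gained it. In the lung these were 712, 20 and 7 of 739, in the difference 669, 17 and 16 of 702, and between controls 710, 17 and 12 of 739. No called value turned its sign; 34 sign changes came from 12 genes not called in either fit. The number of the 37 called in the lung was 3, but 5 by DESeq2's Wald test, 6 with only the 6 libraries compared and 0 to 4 with each library left out, and the number of all genes called there was 423, but 1632, 841 (limma-voom), 1239 and 72 to 761. The causes were not tested. It was 0 of the 37 without lung control 2, lung AML 1 or lung AML 3, and 1 without lung control 1 or lung control 3. Same-numbered libraries did not deviate together (18 correlations from -0.162 to 0.183, 3 of them over 0.1), so the numbers were not used as a pairing, and the labels do not say whether same-numbered libraries share a mouse or day. With the replicate block, 30, 2, 21 and 30 of the 37 were called in marrow, lung, difference and controls, and 7253, 331, 4924 and 11255 of all genes. Of the alternative values of the ratios, 139 stayed within their spread and 1 moved.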
